A study of Mus musculus with 2 samples.

Results

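The 10 antioxidant defence genes examined here encode enzymes that remove hydrogen peroxide, lipid peroxides and superoxide (Prdx1, Prdx2, Cat, Gpx1, Gpx4, Sod1 and Sod2), an enzyme that keeps thioredoxin reduced (Txnrd1), an enzyme that starts glutathione synthesis (Gclc) and the sensor that controls the pathway (Keap1). They are a list of named genes that guard cells bearing haemoglobin, drawn up with earlier results of these data known. For each gene, Gata1 peaks were taken whose midpoint lay in the gene body or within 50 kb of either end. By this rule, 9 of the 4135 peaks in the deposited list belonged to these genes, and 10 of the 21792 protein-coding genes used here were members.

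Red cells carry haemoglobin, whose iron reacts with oxygen and gives rise to superoxide and hydrogen peroxide. Superoxide dismutases turn superoxide into hydrogen peroxide, and catalase, the peroxiredoxins and the glutathione peroxidases break the peroxide down. Most peroxiredoxins draw their electrons from thioredoxin and the glutathione peroxidases examined here from glutathione, while catalase needs neither. Keap1 holds the transcription factor Nrf2 (encoded by Nfe2l2) in the cytoplasm for destruction, and Nrf2 switches on many of these enzymes when Keap1 is oxidised. Gata1 is the zinc finger factor that directs erythroid gene expression, and it recognises short DNA sites built around the letters GATA.

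Gata1 binding was mapped by chromatin immunoprecipitation and sequencing (ChIP-seq) in mouse embryonic stem cells that had been differentiated towards blood for 5 days as embryoid bodies. The sorted cells carried 2 reporters, Runx1-ires-GFP and Gata1::mCherry, and were positive for both. The series describes this population as primitive erythroid, the kind of red cell that an embryo makes first. There was 1 Gata1 ChIP library, made with a rabbit antibody to Gata1, and 1 control library from the same kind of cells, titled as input chromatin and listed with a rabbit IgG. Nuclei from several sorts were frozen and pooled, so the library is an average over sorts with no replicate. Chromatin was fixed with 1% formaldehyde, and the sequenced fragments were 150 to 400 bp long, which limits how closely a peak places its binding site. No values of the control were analysed here.

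Each peak is an interval of 400 bp in mm10, given by position alone, with no height, score or summit. A gene is therefore reported only as having or lacking a called peak, read depth is unknown, and a gene without a peak may be bound below the authors' threshold. Peak positions do not measure gene activity, so neither the labelled cell type nor the level of any antioxidant enzyme was tested. A peak near a gene is not shown to act on it. With 1 library, no comparison below has a replicate check, and no p-value is given.

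Gata1 peaks lay at 7 of the 10 antioxidant genes, and in 5 of them the peak was inside the gene itself. The genes with an internal peak were Prdx2, Cat, Gpx4, Txnrd1 and Gclc, each with 1. Keap1 and Sod1 had peaks outside the gene only, and Prdx1, Gpx1 and Sod2 had none within 50 kb. Among all protein-coding genes, 32.0% had a peak within 50 kb and 9.34% had one in the gene body, against 70% and 50% of the antioxidant genes. In the length range of the 10 genes (1.26 to 63.8 kb), 7.20% of protein-coding genes had a peak in the body. Since the list was drawn up with such results in view, the difference carries no test.

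**Figure D1:**
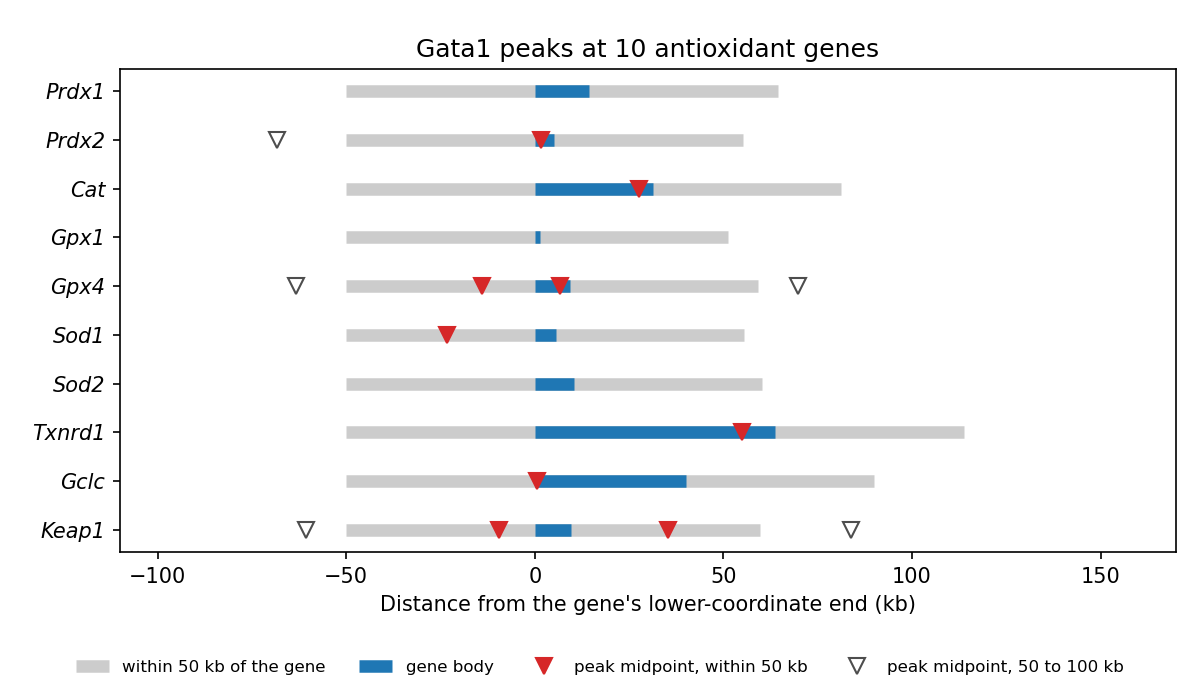
Peak midpoints (triangles) by distance in kb from the lower-coordinate end of each gene, with the gene body in blue and the 50 kb on either side in grey. Filled triangles are the 9 peaks within 50 kb and open triangles are the 5 peaks between 50 and 100 kb; Prdx1, Gpx1 and Sod2 have no triangle of either kind.

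The peroxiredoxins are abundant thiol enzymes that reduce hydrogen peroxide, and Prdx2 is among the most abundant proteins of the red cell. Prdx2 (gene ID 21672, chr8:84969622-84974811, on the plus strand) held a peak at chr8:84971021-84971420, with its midpoint 1.60 kb downstream of the transcript start. The closest other protein-coding genes to that midpoint were Rnaseh2a at 1.62 kb and Junb, which encodes an AP-1 subunit, at 5.69 kb. The next peak lay outside the window, 68.3 kb upstream of Prdx2 and 0.704 kb from Klf1, the erythroid Krüppel-like factor gene. Prdx1 (gene ID 18477, chr4:116685599-116700000) differed: its nearest peak, chr4:116993595-116993994, was 294 kb away. A peak at least as near was found for 66.3% of protein-coding genes.

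Catalase breaks hydrogen peroxide into water and oxygen without a thiol partner. Cat (gene ID 12359, chr2:103453904-103485153, on the minus strand) held a peak at chr2:103481450-103481849. Its midpoint was 3.50 kb downstream of the transcript start, in a gene of 31.2 kb. The nearest other protein-coding gene, Elf5, was 30.7 kb from it, and no second peak lay within 100 kb of Cat. Among the 7 genes with a peak, Cat, Txnrd1, Gclc and Sod1 thus had a single peak even in the wider window.

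Gpx1 and Gpx4 are selenium enzymes that use glutathione. Gpx4, which repairs lipid peroxides in membranes, had a peak at one of its own starts. The gene (gene ID 625249, chr10:80047166-80056439, on the plus strand) has 4 transcript starts in the RefSeq promoter table, and alternative first exons are known to direct the enzyme to different parts of the cell. The peak at chr10:80053634-80054033 covered the start at 80053659 and the start at 80054011. Its midpoint was 174 bp after the first of these and 178 bp before the second. A second peak lay 13.9 kb upstream of the gene, at chr10:80033022-80033421, between Arhgap45 (1.75 kb away) and Polr2e (2.73 kb away).

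The promoter table gives the letters of 348 of the 400 bases in the Gpx4 peak. They held 1 GATA site, defined here as AGATAA or AGATAG or TGATAA or TGATAG on either strand. It began 161 bases before the start at 80054011 and lay 17 to 22 bases above the midpoint of the peak. The stretch before that start is shown because it carries the site inside the peak; it spans chr10:80053761-80054010 on the plus strand of GRCm38.p6 (the assembly behind mm10), is read from RefSeq and has the site in capitals.
Gpx4: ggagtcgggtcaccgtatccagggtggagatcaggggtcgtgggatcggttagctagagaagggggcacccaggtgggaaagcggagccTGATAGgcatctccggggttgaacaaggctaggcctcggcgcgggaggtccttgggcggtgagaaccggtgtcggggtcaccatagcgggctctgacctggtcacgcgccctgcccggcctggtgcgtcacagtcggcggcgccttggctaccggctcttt

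Gpx4 also had 2 GATA sites that the peak did not cover, before its earlier start at 80053565. They are shown, with 12 bases on either side and the site in capitals, because they lie between -437 and -408 bp from the same midpoint, outside the called interval that begins at -199 bp (chr10:80053384-80053413 and chr10:80053408-80053437, plus strand).
Gpx4 first site: tctcccgcgtccCTATCActgggcatgcgc
Gpx4 second site: atgcgcagttgcTGATAAcaacaaactcgt

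The first of these is a site on the opposite strand, so it reads as TGATAG there. The first annotated start of Gpx4, at 80047166, had no GATA site in its window of 250 bases before to 50 bases after. Gpx1, the cytosolic glutathione peroxidase gene of red cells (gene ID 14775, chr9:108339080-108340342), had neither a peak within 100 kb nor a GATA site in its promoter window. Its nearest peak, chr9:108451101-108451500, was 111 kb away, and 46.1% of protein-coding genes had a peak at least as near. Gpx1 sits among 5 other protein-coding genes within 50 kb (Amt, Nicn1, Rhoa, Tcta and Usp4), and none of them held a peak in the gene. Among the members, only Keap1 had a neighbour within 50 kb that held one (1 of 5). Of all protein-coding genes, 9.34% had a peak in their own body. The share of genes with such a neighbour was not taken.

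**Figure D2:**
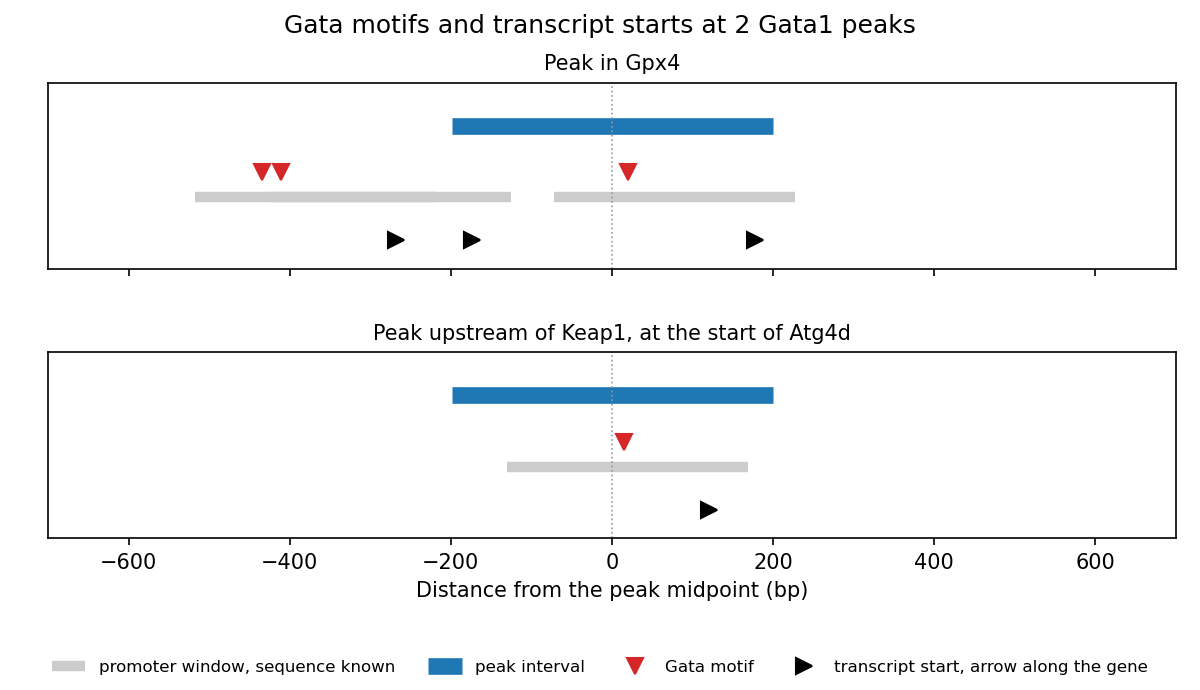
The peak in Gpx4 (top) and the peak upstream of Keap1 (bottom), with distance from the peak midpoint in bp on the horizontal axis. Blue bars are the 400 bp peaks, grey bars the stretches of known sequence, red triangles the GATA sites and black arrowheads the transcript starts; in each panel 1 site lies within 25 bp of the midpoint, and the Gpx4 start at 80047166 lies beyond the left edge.

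Superoxide dismutases form the first step. Sod1, the copper and zinc enzyme of the cytosol (gene ID 20655, chr16:90220762-90226333, on the plus strand), had 1 peak, 23.3 kb upstream of its start at chr16:90197309-90197708. This peak lay in the noncoding gene Gm35714, and Sod1 was its nearest protein-coding gene, ahead of Scaf4 at 31.4 kb. Sod2, the manganese enzyme of mitochondria (gene ID 20656, chr17:13007839-13018119), had its nearest peak 284 kb away, at chr17:12724014-12724413. Its 4 protein-coding neighbours within 50 kb (Acat2, Gpr31b, Tcp10b and Wtap) had no peak in the gene, as was so for the neighbours of every member but Keap1.

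Txnrd1 encodes the cytosolic thioredoxin reductase, a selenium enzyme that feeds electrons to thioredoxin and through it to the peroxiredoxins. In Txnrd1 (gene ID 50493, chr10:82833951-82897724, on the plus strand) the peak at chr10:82888607-82889006 lay deep in the gene. It was 28.5 kb downstream of the nearest of the 3 transcript starts in the promoter table and 8.92 kb from the end of the gene. Of the 5 peaks inside members, this was the furthest from a start of its own gene among the 4 whose starts are in that table.

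Gclc encodes the catalytic subunit of glutamate-cysteine ligase, the rate-limiting enzyme of glutathione synthesis. In Gclc (gene ID 14629, chr9:77754535-77794489) the peak at chr9:77754994-77755393 had its midpoint 0.658 kb from the lower-coordinate end of a gene of 40.0 kb. No other protein-coding gene lay within 50 kb of Gclc, and the nearest to the peak was Klhl31 at 95.1 kb. None of the other 8 peaks lay so far from a protein-coding gene other than its member.

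Keap1, the oxidant sensor, had 2 peaks in its window and none in the gene (gene ID 50868, chr9:21229730-21239332, on the minus strand). The first, chr9:21220142-21220541, lay 9.39 kb beyond the downstream end and was nearer to Pde4a, a phosphodiesterase gene, at 7.09 kb. The second, chr9:21264966-21265365, lay 25.8 kb upstream of the Keap1 start and 120 bp before the start of Atg4d, which encodes an autophagy protease. Of the 9 peaks, the nearest protein-coding gene was the member itself for 6, and the exceptions were both Keap1 peaks and the upstream Gpx4 peak. Counting a peak only for its nearest protein-coding gene therefore left 6 members with a peak, without Keap1. The share of all protein-coding genes under this stricter rule was not taken, so the 6 stand without a comparison.

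The second Keap1 peak was the only other one of the 9 for which the promoter table gives letters, 300 of its 400 bases. They held 1 GATA site, 13 to 18 bases above the midpoint of the peak and beginning 107 bases before the Atg4d start. The same letters held 3 matches to the CACC box (CCACNCCC), of which 17.6% of all promoter windows held at least 1. The 250 bases before that start are shown because the site in them sits near the centre of a peak, as in Gpx4 (chr9:21265035-21265284, plus strand, RefSeq GRCm38.p6, site in capitals).
Atg4d: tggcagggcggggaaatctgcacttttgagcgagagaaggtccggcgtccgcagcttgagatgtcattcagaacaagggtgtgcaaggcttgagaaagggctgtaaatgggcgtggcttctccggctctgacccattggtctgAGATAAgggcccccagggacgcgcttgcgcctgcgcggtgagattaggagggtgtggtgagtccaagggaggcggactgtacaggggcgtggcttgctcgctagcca

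Over the whole peak list, 242 peaks had their central 51 bases inside a promoter window, and 106 of these (43.8%) held a GATA site there. In the central 51 bases of all 32817 promoter windows the share was 6.24%. Both readable peaks near the antioxidant genes were among the 106. A match of letters is a description and does not show that Gata1 contacts the site. The other 7 peaks could not be read, since no promoter window reaches them.

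Promoter windows were given for 9 of the 10 members, 14 windows in all. Of these, 2 windows had a base in a peak, against 1.65% of all windows, and both belong to Gpx4 and touch the same peak. A GATA site was present in 4 of the 14 windows, from 2 of the 9 members, Gpx4 and Keap1, and 29.8% of all promoter windows held one. The Gpx4 windows of the starts at 80053565 and 80053659 overlap and share the TGATAA shown above. The Keap1 site began 128 bases before its start, with no peak at that promoter, and is shown for contrast with the Gpx4 site (chr9:21239443-21239472, minus strand, site in capitals).
Keap1: tattttacaagaAGATAAatatcgcaacca

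The antioxidant response element, to which Nrf2 binds with a small Maf protein, was searched as TGACNNNGC on both strands. It was found in 3 of the 14 windows, from Prdx1, Sod1 and Txnrd1, against 12.4% of all windows. All are matches on the opposite strand of the gene. None of these 3 windows had a base in a Gata1 peak, but only 1.65% of all windows had one. The 3 matches are shown as the only ones in the member windows (chr4:116685454-116685486, chr16:90220694-90220726 and chr10:82859102-82859134, plus strand, element in capitals).
Prdx1: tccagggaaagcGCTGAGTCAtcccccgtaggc
Sod1: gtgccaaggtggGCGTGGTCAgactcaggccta
Txnrd1: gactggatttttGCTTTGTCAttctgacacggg

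The Prdx1 element, which begins 133 bases before the start, contains TGAGTCA, the core bound by the erythroid factor NF-E2 and by AP-1. A second such core began 237 bases before the same start, and no other member window held one (5.20% of all windows did). The CACC box of Krüppel-like factors, searched as CCACNCCC, was found in 1 window each of Keap1, Sod1, Sod2 and Txnrd1 (17.6% of all windows). The E-box CANNTG, the kind of site bound by Tal1, was found in 7 of the 14 windows (72.3% of all windows). The windows of Prdx2, Cat and Gpx1 held no GATA site, response element, NF-E2 core or CACC box, and of these only the Prdx2 window held an E-box.

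The number of members with a peak depended little on the window. It was 5 with the gene body alone and also with 1 kb on either side, 6 with 10 kb, 7 with 50 kb and 7 with 100 kb. The shares of all protein-coding genes were 11.3% with 1 kb, 16.6% with 10 kb and 43.9% with 100 kb. At the border of the 50 kb rule, the furthest peak inside was the one 25.8 kb from Keap1 and the nearest outside was 60.6 kb above Gpx4, in Stk11. Gpx4 and Keap1 had at least 2 peaks within 50 kb (20% of members, against 10.9% of protein-coding genes). Within 100 kb both had 4, and Prdx2 had 2.

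**Figure D3:**
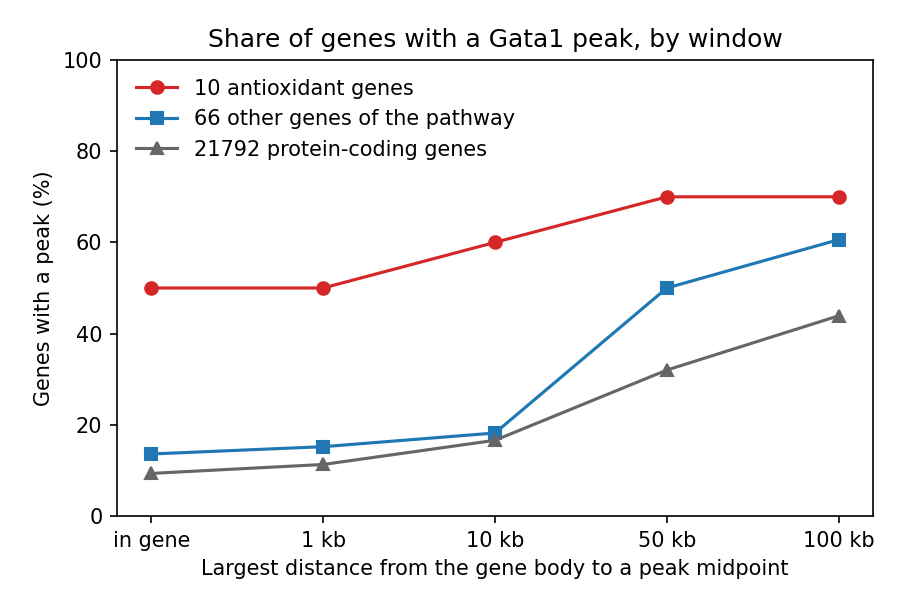
Share of genes with a Gata1 peak (%) against the largest distance allowed from the gene body, for the 10 antioxidant genes (red), 66 other genes of the pathway (blue) and all 21792 protein-coding genes (grey). The red line runs from 50% to 70%, the blue line from 13.6% to 60.6% and the grey line from 9.34% to 43.9%.

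Measured without any window, the distance from a member to its nearest peak had a median of 4.69 kb, and that of all protein-coding genes was 135 kb (quartiles 28.9 and 467 kb). Of the members, 7 lay within 23.3 kb of a peak, as did 22.7% of protein-coding genes, and the other 3 were 111 kb or more away. This split was read from the values and was not set beforehand. Of the 9 peaks, 2 had a midpoint within 1 kb of a transcript start, as did 20.5% of the nuclear peaks on the chromosomes of the promoter table. That table has no start of Gclc, so the Gclc peak, 0.658 kb from the lower-coordinate end of the gene, could not be counted for one. A midpoint in a protein-coding gene was found for 5 of the 9 and for 58.8% of nuclear peaks. The 9 were taken for lying in or near a gene, so these shares are set beside each other as a description only.

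**Figure D4:**
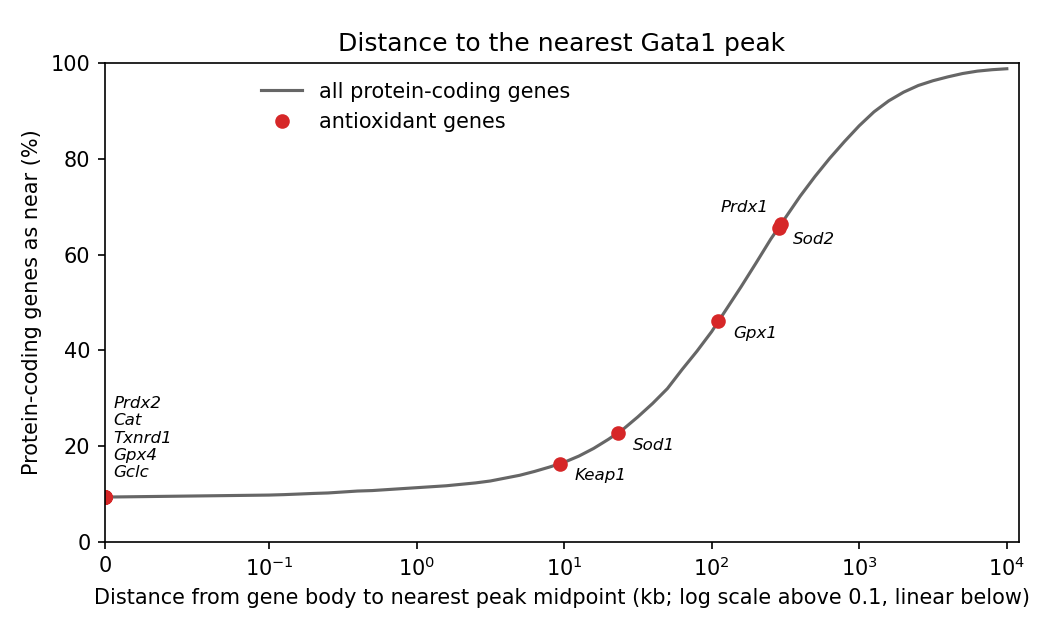
Share of protein-coding genes (%) whose nearest peak is as near as the distance on the horizontal axis (kb, log scale above 0.1), with the 10 antioxidant genes as red points. The 5 genes with a peak inside are at 0, Keap1 at 9.39 kb and Sod1 at 23.3 kb, and Gpx1, Sod2 and Prdx1 are at 111 kb or more.

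The wider pathway was described with 66 further genes, grouped by role. A peak lay in the gene body of 9 of them (13.6%), within 10 kb of 12 (18.2%), within 50 kb of 33 (50%) and within 100 kb of 40 (60.6%). The shares of all protein-coding genes at these distances were 9.34%, 16.6%, 32.0% and 43.9%. Within 50 kb, 15 of the 66 had a peak whose nearest protein-coding gene was the gene itself. That rule is stricter, and no share of all protein-coding genes was taken under it. No test was made of the differences between the shares above.

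The peroxiredoxin role held 5 further genes: Prdx3, Prdx4, Prdx5, Prdx6 and Srxn1, which is not itself a peroxiredoxin gene. Of these, 2 had a peak within 10 kb and 4 within 50 kb, with Srxn1 at 16.3 kb among the 4. Of the 9 thioredoxin and glutaredoxin genes, 2 and 6 did. The shares of all protein-coding genes at these distances were 16.6% and 32.0%. Prdx3, the mitochondrial peroxiredoxin gene, held a peak 2.11 kb downstream of its start (chr19:60872228-60872627). Txnrd2, encoding the mitochondrial thioredoxin reductase, held one 33.8 kb downstream (chr16:18459992-18460391). Glrx5, encoding a mitochondrial glutaredoxin needed for iron-sulfur clusters and haem synthesis, had 4 peaks within 10 kb, the most of any listed gene. The Glrx5 peaks lay in the gene 1.95 and 6.56 kb downstream of the start, and 4.80 and 6.80 kb upstream of it. Among other mitochondrial members of these roles, Txn2 had its nearest peak at 27.7 kb and Glrx2 at 257 kb. Prdx6, the gene of a peroxiredoxin that also repairs lipids, held a peak 1.04 kb from its higher-coordinate end. With the members Prdx1 and Prdx2 included, Prdx2, Prdx3 and Prdx6 had a peak in the gene, where 9.34% of all protein-coding genes had one. Prdx5 had its nearest at 41.9 kb, and Prdx1 and Prdx4 had none within 100 kb.

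Of the 6 genes listed with the Nrf2 sensor and factors, 2 had a peak within 10 kb and 4 within 50 kb, where all protein-coding genes had 16.6% and 32.0%. Nfe2l2, the Nrf2 gene, had a peak 0.433 kb upstream of its start, at chr2:75704897-75705296. Cul3, encoding the ligase scaffold that joins Keap1 to destroy Nrf2, held one 1.20 kb downstream of its start (chr1:80339292-80339691). The nearest peak was at 14.2 kb for Sqstm1, 46.7 kb for Rbx1, 64.5 kb for Nfe2l3 and 87.7 kb for Nfe2l1.

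Of the 18 other Nrf2 targets and detoxifying genes, 7 had a peak within 50 kb and 3 within 10 kb, where all protein-coding genes had 32.0% and 16.6%. The 3 were Mgst3, a microsomal glutathione transferase gene, and Sesn1, a sestrin gene, in the gene, and Park7, which encodes DJ-1. The Park7 peak lay 1.83 kb beyond the downstream end of the gene and 14.6 kb from its start. The classical Nrf2 targets Hmox1 (haem oxygenase) and Nqo1 (a quinone reductase) had their nearest at 99.0 and 33.7 kb. Glutathione supply had 4 of 7 within 50 kb and 1 within 10 kb: Slc3a2, the heavy chain of the cystine transporter, had a peak in the gene, and its partner Slc7a11 had its nearest at 658 kb. Gclm, the regulatory partner of Gclc, had its nearest peak at 24.1 kb.

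NADPH supply had 1 of 7 at both distances, the transketolase gene Tkt, with a peak 1.30 kb downstream of its start. G6pdx, which encodes the enzyme that opens the pentose phosphate pathway, had its nearest at 139 kb. Selenoprotein synthesis had 4 of 5 within 50 kb, 5 of 5 within 100 kb and 1 within 10 kb, Eefsec, the selenocysteine elongation factor gene. The Eefsec peak lay 3.12 kb beyond the downstream end of the gene and 192 kb from its start. The shares of all protein-coding genes were 16.6% within 10 kb, 32.0% within 50 kb and 43.9% within 100 kb. None of the 7 further glutathione peroxidase and reductase genes had a peak within 10 kb, and 2 did within 50 kb (Gpx2 at 26.6 kb and Gpx3 at 35.9 kb). Gsr, the glutathione reductase gene, had its nearest at 209 kb. Neither Sod3, the extracellular dismutase gene, nor Ccs, the copper chaperone gene of Sod1, had one within 10 kb, and Ccs had one at 39.6 kb.

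**Figure D5:**
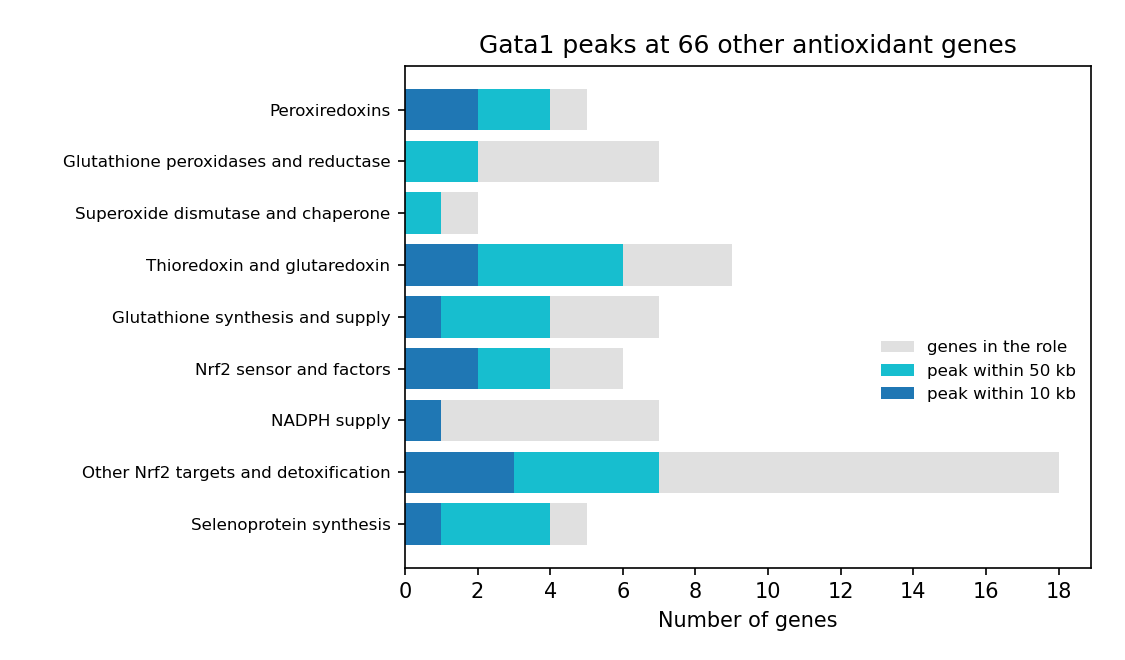
Number of genes in each of 9 roles (grey), with those that had a peak within 50 kb (cyan) and within 10 kb (dark blue) drawn over them from 0. The glutathione peroxidase and dismutase roles have no dark blue bar, and the NADPH role has 1 gene at both distances.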

How the data were processed

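The authors deposited 4135 peak positions of the Gata1 ChIP library, with no score. Bowtie2 2.0.6 and MACS2 2.0.10 are named, with mm10 as build, in the submitters' processing notes. Settings, threshold and use of the control are not given in the sources. Peaks are printed 1-based. Genes came from the RefSeq table of GRCm38.p6, without 340 entries that carry scaffold positions (under 3 Mb, Y and mitochondrial genes kept). All 10 members and 66 of 66 pathway genes matched by symbol. Transcript starts, strands and sequences came from the RefSeq promoter table (250 bases before to 50 after a start, 32817 distinct windows), which had windows for 9 members, Gclc being the other. Python 3.11.15, numpy 2.4.6 and pandas 2.3.3 were used, and the distance and motif code was tested on simulated data.

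The members and lists were chosen with earlier results of these data known. All members are named, and of the pathway list the genes with a peak within 10 kb; the other pathway genes named were chosen after their values were seen. Alternatives were the window, any overlap, merging of close peaks, the nearest gene only and the bare letters GATA.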

Additional observations from a re-analysis of the deposited data

How the results depend on the processing

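The count of 7 members with a peak stayed within 1.5 times (5 to 7) under the 6 alternatives run for it. The number of peaks near members, 9 with 50 kb, was 5 with the gene body or 1 kb and 14 with 100 kb; it was 6 with 10 kb or the nearest protein-coding gene only, and 9 with any overlap and with peaks within 1 or 10 kb of each other counted once. The pathway count of 33 depended on the window by construction: it was 9 in the gene body, 10 with 1 kb, 12 with 10 kb, 40 with 100 kb and 33 with any overlap, and 15 with the nearest protein-coding gene only. With the bare letters GATA, 4 members had a match in a promoter window (Cat, Gpx4, Keap1 and Txnrd1) in place of 2. These matches were in 8 of the 14 member windows, and 57.9% of all promoter windows held one. A stricter peak threshold was not run, because the list has no score. Depth could not be examined. No paired analysis was possible because there was 1 ChIP library.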

Other observations

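Over all genes, promoter windows with 150 or more of their 300 bases in a peak (388 windows) held a GATA site in 53.1%, against 29.5% of the 32276 windows with no base in a peak. The antioxidant response element was held by 15.7% and 12.3% of these windows, the CACC box by 20.6% and 17.6%, the NF-E2 core by 3.61% and 5.24%, and the E-box by 60.1% and 72.5%. These are descriptions of promoter windows and no test was made. Near the antioxidant genes, the peak at Nfe2l2 overlapped 17 bases of that gene's promoter window. These 17 bases held 1 E-box and no whole response element. The rest of the 400 bp peak could not be read, so the absence does not describe the peak.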
